A study of Rattus norvegicus with 2 samples.

Results

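Gap43, Basp1, Marcks and Marcksl1 encode the membrane phosphoproteins of the neuronal growth cone, and these 4 genes were looked up by their RefSeq accessions, symbols and descriptions among the 9894 genes listed in either library. Gap43 (NM_017195) and Marcksl1 (NM_030862) had values, so 2 of the 4 genes are described here, while Basp1 and Marcks were not analysed here. The study asked which mRNAs change when PIWIL1, a protein of the PIWI family, is knocked down in young cortical neurons. Cells dissociated from the somatosensory cortex of E16 Sprague-Dawley rats were electroporated with either a control plasmid or an RNAi plasmid, and each culture was grown for 48 h in Neurobasal medium with serum and B27. In the study the control plasmid carried a scrambled siRNA and the RNAi plasmid an siRNA against PIWIL1, both from a pSuper vector, but which of its siRNAs was sequenced is not given in the sources used here. A sort of the cells that took up plasmid is not described in those sources. There was 1 library per condition, so no difference below has a replicate check, and PIWIL1 itself was not analysed here, so its knockdown was not checked. In bulk RNA, fewer cells of a type and less mRNA per cell cannot be told apart.

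The proteins share a way of sitting on the inner face of the plasma membrane and of being released from it. GAP-43 (neuromodulin) is anchored by palmitate on a pair of cysteines close to its N terminus, binds calmodulin and is a substrate of protein kinase C in growing axons. MARCKS, its relative MARCKSL1 (MARCKS-related protein) and BASP1 carry a myristate on the glycine that follows the initiator methionine. Their basic domains bind acidic lipids such as phosphatidylinositol bisphosphate, and calcium with calmodulin or phosphorylation by protein kinase C displaces the MARCKS proteins from the membrane. These proteins are thought to link membrane lipids to the actin network of the growth cone, and Gap43 mRNA is a standard marker of axon growth.

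Transcripts were read as tags of 21 bases that start at a CATG site, and the site nearest the 3′ end of a transcript is the one that this assay normally captures. Sites are numbered from the 3′ end. The leading (most copied) tag of each site is shown because the results for Gap43 turn on which of its sites is read. CATG is in capitals in each of them, and the other capitals are explained after the sequences.
Gap43 site 1: CATGagagtaatcAAAAAAAA
Gap43 site 2: CATGcctgaactttaagaaac
Gap43 site 3: CATGctgTGCTGTatgagaag
Marcksl1 site 1: CATGGGCagccagagctccaa
The final capitals of Gap43 site 1 are a run of 8 A that ends the tag. In the tag of Gap43 site 3, read in codons from the ATG, the third and the fourth codon are the cysteine codons TGC and TGT, and in the tag of Marcksl1 the codon after the ATG is the glycine codon GGC. Whether these ATG are the start codons was not checked, since no transcript sequence was used here. Every tag was listed under a single gene, and 0 tags of other genes differed from any of these 4 tags by 1 base.

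As deposited, both mRNAs were more abundant in the RNAi library, Gap43 by 1.36-fold and Marcksl1 by 1.18-fold, and neither was called at the study's thresholds. These are an FDR of 0.05 or less and a log2 ratio of at least 0.58 in either direction. After a correction for how tags end, described below, the sign of Gap43 reversed and Marcksl1 was nearly equal in the libraries. Gap43 had 2670 copies of its tags in the control library and 3541 in the RNAi library. Scaled by the authors to the clean tags of each library, this was 788 TPM (copies per 1000000 clean tags, exact 95% interval 759 to 819) and 1072 TPM (1037 to 1108). Its log2 ratio was 0.44 (exact 95% interval 0.37 to 0.52), and Fisher's exact test gave an FDR of 5.67e-35. Marcksl1 had 3451 and 3980 copies, or 1019 TPM (985 to 1053) and 1205 TPM (1168 to 1243). Its log2 ratio was 0.24 (exact 95% interval 0.18 to 0.31), with an FDR of 7.22e-14 in the same exact test. The intervals of the libraries did not overlap for either gene. Gap43 exceeded Marcksl1 in log2 ratio by 0.20 (exact 95% interval 0.10 to 0.30). PCR copies are not separate molecules, so the intervals hold only the error of counting, and Fisher's exact test compares these libraries and not the conditions. Under edgeR's exact test with a spread between replicates set by hand to a coefficient of variation of 0.1, the FDR was 0.267 for Gap43 and 0.657 for Marcksl1. With the coefficient set to 0.2 or 0.4, neither gene passed an FDR of 0.05 either.

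**Figure D1:**
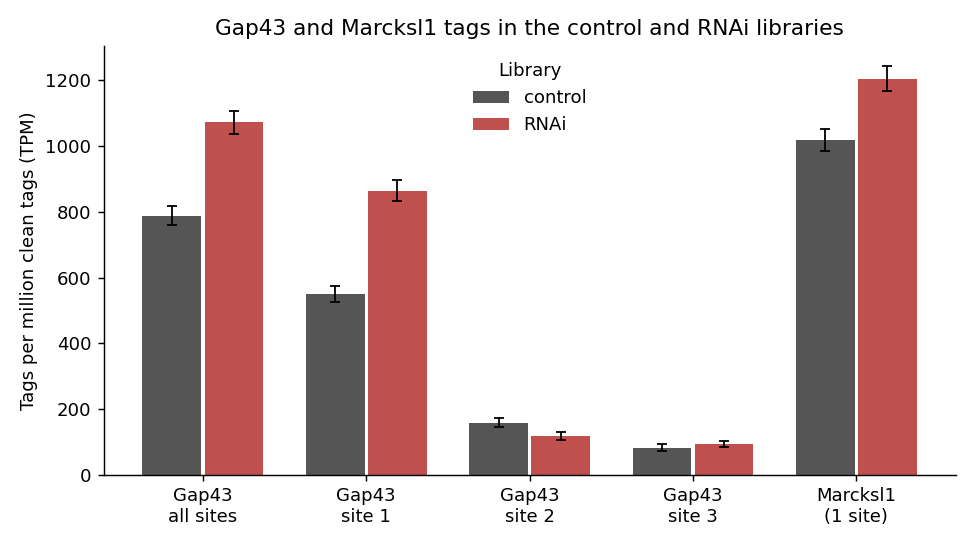
Tag level (TPM, copies per 1000000 clean tags) of Gap43, of each of its 3 CATG sites and of Marcksl1 in the control and the RNAi library, with bars for single libraries and error bars for exact 95% counting intervals. Gap43 stood at 788 and 1072 TPM and Marcksl1 at 1019 and 1205 TPM, site 2 of Gap43 was lower in the RNAi library, and after correction for the tag end Gap43 was lower and Marcksl1 nearly equal in the RNAi library.

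The libraries held 1947600 and 1865913 copies on genes, 57.5% and 56.5% of the clean tags, and 3 copies corresponded to 0.886 and 0.908 TPM. Of all 9894 genes, 2.96% were called higher and 5.97% were called lower in the RNAi library, against 0 of the 2 measured members in either direction. At an FDR of 0.05 or less with no threshold on the ratio, both members were higher, as were 7.14% of all genes. That share grows with depth. Among the 109 genes whose copies summed to 5000 or more over the libraries, a limit chosen after the values were seen, 43.1% were higher at this FDR and 43 genes were lower. Gap43 and Marcksl1 belong to these abundant genes. The median log2 ratio of the 109 genes was 0.00 with quartiles of -0.23 and 0.23, so Marcksl1 lay at the edge of the middle range and Gap43 above it. A higher log2 ratio than that of Gap43 was found in 7 of them, and 25 exceeded Marcksl1.

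**Figure D2:**
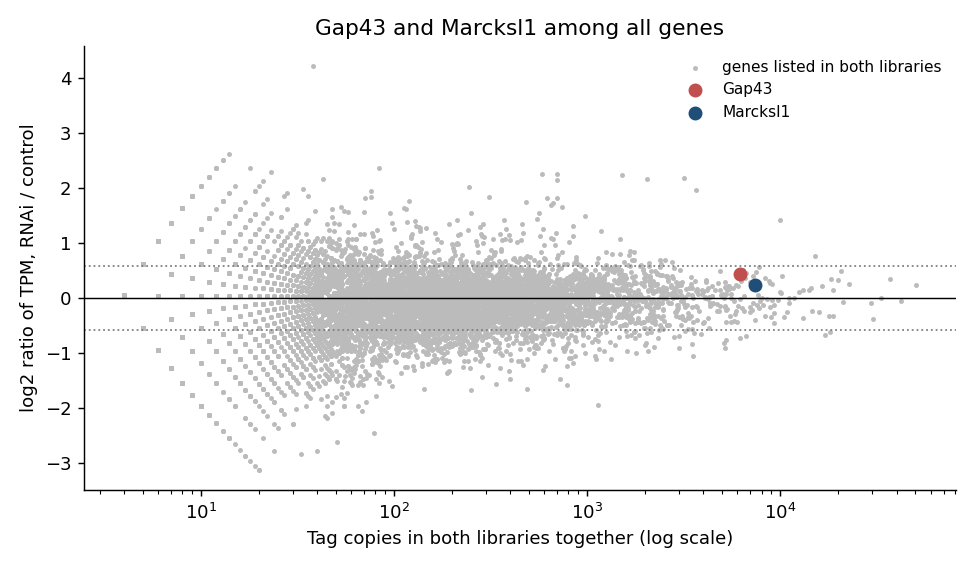
Log2 ratio of TPM (RNAi over control) against the tag copies in both libraries together (log scale) for the 8899 genes listed in both libraries, with Gap43 and Marcksl1 marked and dotted lines at 0.58 in either direction. Both members lie among the most copied genes, above 0 as deposited and inside the dotted lines.

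As deposited, the 3 sites of Gap43 did not move alike, and their values corrected for the tag end are given further below. Site 1, whose tag ends in the run of A, went from 1862 to 2851 copies with its 1-base variants counted, or from 550 to 863 TPM. Its log2 ratio was 0.65 (exact 95% interval 0.57 to 0.74). Site 2 went the other way, from 532 to 384 copies (157 to 116 TPM), a log2 ratio of -0.43 (-0.63 to -0.24). Site 3, the tag with the cysteine codons, had 276 and 306 copies (81.5 and 92.6 TPM) and a log2 ratio of 0.18 whose interval (-0.05 to 0.42) included 0. The higher total of Gap43 in the RNAi library therefore rested on site 1 in these counts. Site 1 exceeded site 2 in log2 ratio by 1.08 (exact 95% interval 0.87 to 1.30) and site 3 by 0.47 (0.21 to 0.72). Site 3 did not differ detectably from Marcksl1 in log2 ratio (difference -0.06, -0.31 to 0.19).

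The make-up of the Gap43 tags shifted accordingly. Site 1 held 69.7% of them in the control library (exact binomial 95% interval 68.0% to 71.5%) and 80.5% in the RNAi library (79.2% to 81.8%). Site 2 held 19.9% and 10.8%, and site 3 held 10.3% and 8.64%. A spread of this size between sites was uncommon but not unique. Among the 432 genes with at least 100 copies per library on 2 or more sites, the range of log2 ratios between sites had a median of 0.43, and 40 genes (9.26%) had a range at least as wide as that of Gap43 (1.08). Sites of opposite sign were found in 55.3% of these genes. They were not matched to Gap43, which had 3 sites, in number of sites or in tag ends. A range can only stay or widen with each added site. Marcksl1 had a single site, so its log2 ratio could not be compared between sites.

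**Figure D3:**
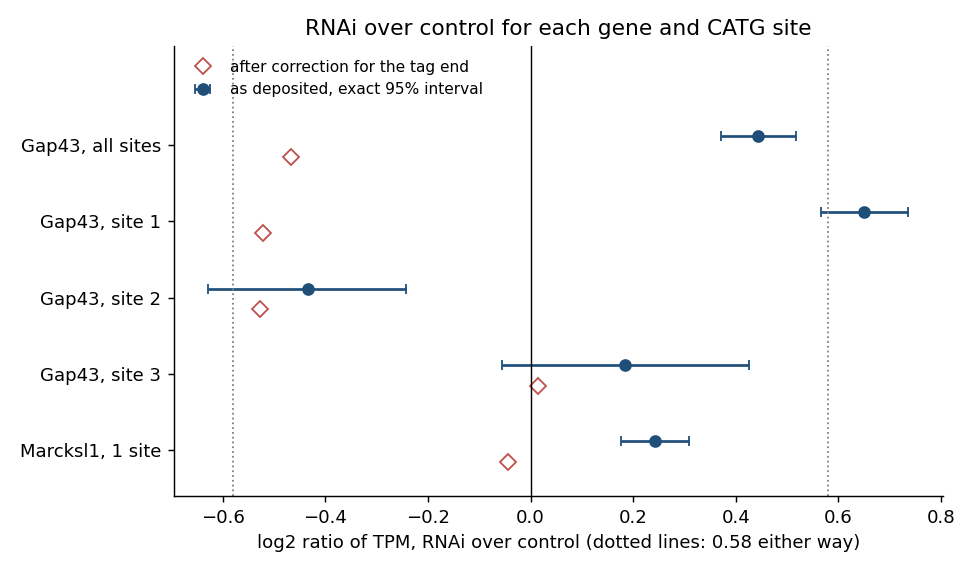
Log2 ratio of TPM (RNAi over control) for Gap43, each of its sites and Marcksl1, with filled points and exact 95% intervals for the deposited copies (1-base variants included) and open diamonds for copies corrected for the tag end (leading tag only for single sites). As deposited, site 1 (0.65) and site 2 (-0.43) of Gap43 lie on opposite sides of 0, and after the correction Gap43 as a whole is at -0.47 and Marcksl1 at -0.04.

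The end of the tag moved with the ratio across the whole data set. Tags whose copies summed to 20 or more were grouped by their final bases. The median log2 ratio was -0.16 for the 11564 tags without an A at the end and 0.16 for the 993 tags ending in exactly 2 A, as the tag of Marcksl1 does. It was 0.90 for the 20 tags ending in exactly 8 A, as the leading tag of Gap43 does. The leading tag of Gap43 was the most copied of these 20 tags. It went from 1795 to 2770 copies, a log2 ratio of 0.66 (exact 95% interval 0.58 to 0.75), which 14 of the others exceeded and 5 did not reach. All 20 were higher in the RNAi library. The tag of Marcksl1 went from 3426 to 3941 copies (log2 ratio 0.24), inside the quartiles of tags with its end (-0.16 and 0.45). The tag of Gap43 site 2 ends in AC, where the median was -0.03 and the quartiles -0.35 and 0.28, and its log2 ratio of -0.45 (from 532 to 380 copies) lay below them. The tag of site 3 ends in AG, where the median was 0.11. Of the Gap43 copies, those on tags with a final run of 8 or more A were 68.1% in the control library and 79.2% in the RNAi library.

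For the correction, the median of each tag end was counted from the median of all tags (-0.08 over the whole data set) and taken out. The log2 ratio was then -0.47 for Gap43 (FDR 1.57e-28 by Fisher's exact test) and -0.04 for Marcksl1 (FDR 0.980 by Fisher's exact test). The FDR after this correction does not include the spread of tags around the median of their end. Gap43 was not called lower, because this ratio did not reach -0.58. The median behind Gap43 site 1 came from only 6 tags of other genes, and with medians over all genes but the members (19 tags with this end) the log2 ratio of Gap43 was -0.32 and that of Marcksl1 0.01. For the leading tags of Gap43, the corrected log2 ratio was -0.52 at site 1, -0.53 at site 2 and 0.01 at site 3. With medians over all genes but the members, these were -0.32, -0.50 and -0.0005. Sites 1 and 2 thus no longer had opposite signs after the correction. Without the tags that end in at least 8 A, Gap43 had a log2 ratio of -0.17 (FDR 0.304 by Fisher's exact test). What produced the relation between tag end and ratio was not tested.

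**Figure D4:**
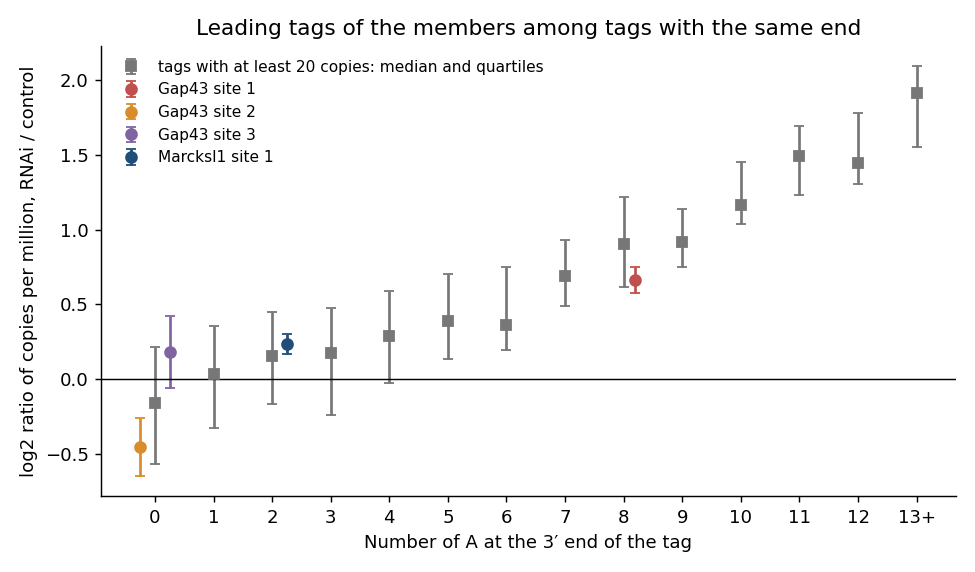
Log2 ratio of tag TPM (RNAi over control) against the number of A at the 3′ end of the tag, with grey squares and bars for the median and quartiles of all tags with at least 20 copies and coloured points with exact 95% intervals for the leading tags of the members. Medians run from -0.16 without an A to 0.90 with 8 A and 1.91 with 13 or more A. Gap43 site 1 (0.66), site 2 (-0.45), site 3 (0.18) and Marcksl1 (0.24) each lie inside the quartiles of tags with as many A.

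Tags that differ by 1 base from the leading tag were listed under the same site. They made up 3.60% of the copies of Gap43 site 1 in the control library (67 of 1862 copies, exact binomial 95% interval 2.80% to 4.55%) and 2.84% in the RNAi library (81 of 2851 copies, 2.26% to 3.52%). For Marcksl1 they made up 0.724% (25 of 3451 copies, 0.469% to 1.07%) and 0.980% (39 of 3980 copies, 0.698% to 1.34%). The intervals of the libraries overlapped in both genes. Over the 590 sites of all genes with at least 1000 copies of the leading tag, the medians were 0.419% and 0.646%, so site 1 of Gap43 lay above them in both libraries.

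The genes that modify, bind or travel with these proteins were grouped in 8 lists of 107 genes, of which 88 had a value. In all, 5 of the 88 were called lower and 3 higher in the RNAi library, close to the shares of all genes (5.97% lower and 2.96% higher). Of 30 measured genes of the growth cone and of neurite outgrowth, 2 were called lower and 0 higher, and the median log2 ratio was -0.12, beside -0.09 for all genes listed in both libraries. The genes called lower were Fscn1, which encodes the actin-bundling protein fascin (2398 and 1481 copies, log2 ratio -0.66, 95% interval -0.75 to -0.57), and Dpysl3, a collapsin response mediator (107 and 62 copies, -0.75, -1.23 to -0.29). Corrected for the tag end, Fscn1 had a log2 ratio of -0.16 and was not called, and Dpysl3 had -0.69 and still was. The most copied gene of the list was Cfl1 (cofilin), with 10053 and 7800 copies and a log2 ratio of -0.33 (-0.37 to -0.29). Gap43 thus stood, as deposited, on the other side of 0 from the median of this list, which was close to that of all genes. At an FDR of 0.05 or less with no threshold on the ratio, 9 of the 30 genes were lower and 4 higher. Of all genes 7.14% were higher at this FDR, and the share lower is not given here. Such shares grow with depth, and of the 109 most copied genes 43.1% were higher and 43 genes were lower. The counts are therefore not read as a trait of this list. The higher genes of the list were Cap1 (log2 ratio 0.575), Dbn1 (0.49), Dpysl5 (0.39) and Capzb (0.21).

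Among 12 measured enzymes of lipid anchoring, methionine aminopeptidases included, 1 was called higher and 0 lower. It was Ppt1, the lysosomal palmitoyl thioesterase, with 152 and 400 copies and a log2 ratio of 1.43 (95% interval 1.16 to 1.71). Of its copies 89.7% lay on tags ending in 8 or more A, and once corrected it had a log2 ratio of 0.08. The most copied gene of the list was Lypla2, an acyl-protein thioesterase that removes palmitate, with 680 and 885 copies and a log2 ratio of 0.42 (0.27 to 0.56). Nmt1, which attaches myristate, had 207 and 208 copies and a log2 ratio of 0.04 (-0.24 to 0.33), so no difference could be detected with these counts.

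Of 11 measured kinases that phosphorylate these proteins, 1 was called lower. The gene called lower was Prkce (protein kinase C epsilon), with 8 copies in the control library and none listed in the RNAi library, and it was not called after correction (FDR 0.0617 by Fisher's exact test). The most copied kinase was Prkci (atypical protein kinase C iota), with 218 and 278 copies and a log2 ratio of 0.39 (0.13 to 0.65). Among the 7 phosphatase genes, Ppp2ca, a catalytic subunit of protein phosphatase 2A, was called higher (364 and 821 copies, log2 ratio 1.21, 95% interval 1.03 to 1.39), also after correction (1.14). Its most copied tag accounted for this, with 76 copies in the control library and 571 in the RNAi library. The most copied gene there was Ppp2r1a, the scaffold subunit of this phosphatase (1639 and 1987 copies, log2 ratio 0.31). Of the calcineurin genes, Ppp3r1 had 1069 and 1113 copies and a log2 ratio of 0.09 (-0.03 to 0.22).

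None of the 5 genes for calmodulin and small calmodulin binders was called in either direction. Of these, Calm2 had 2046 and 2018 copies and a log2 ratio of 0.02 (-0.07 to 0.11). Of 15 measured phosphoinositide enzymes, 1 was called higher, Plcg1 (phospholipase C gamma), with 93 and 177 copies and a log2 ratio of 0.96 (0.59 to 1.34). It was still called after the correction, and its most copied tag had 12 copies in the control library and 102 in the RNAi library. The most copied of them, the lipid transfer protein gene Pitpna, had 476 and 548 copies and a log2 ratio of 0.24. The adducins, which like MARCKS carry a basic domain regulated by protein kinase C, were represented by Add1 (549 and 599 copies, 0.16) and Add2 (183 and 149 copies, -0.26), and neither was called. Of 6 measured RNA-binding proteins, 2 were called lower. They were Elavl3, a neuronal Hu protein (125 and 75 copies, log2 ratio -0.70, -1.13 to -0.28), and Fmr1 (68 and 36 copies, -0.88, -1.51 to -0.28), and both were still called after correction. The most copied gene of the list was Pabpc1, a poly(A)-binding protein, with 813 and 621 copies and a log2 ratio of -0.35 (-0.51 to -0.20). Elavl4, the Hu protein known to bind Gap43 mRNA, had 85 and 74 copies and a log2 ratio of -0.16 (-0.63 to 0.30).

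**Figure D5:**
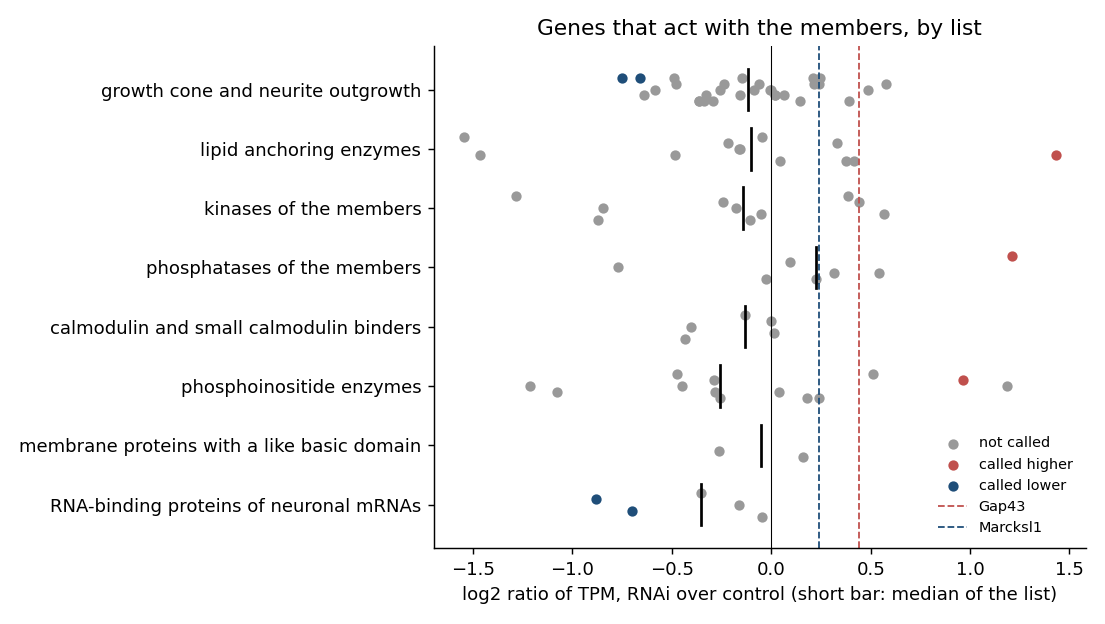
Log2 ratio of TPM (RNAi over control) of single genes in the 8 lists, with short black bars for list medians, coloured points for called genes and dashed lines for Gap43 (0.44) and Marcksl1 (0.24) as deposited. Genes listed in only 1 library, such as Prkce, are not drawn, and list medians run from -0.35 for the RNA-binding proteins to 0.23 for the phosphatases.

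Cell type markers were read in the same libraries, because Gap43 is mainly neuronal at this age while Marcksl1 is also expressed by progenitors. All 7 neuron markers had a value, and their summed level was 1524 TPM in the control library and 1188 TPM in the RNAi library. Of them Snap25, a synaptic SNARE, was called lower (918 and 545 copies, log2 ratio -0.72), but not after correction for the tag end (-0.57). Tubb3, the neuronal tubulin and the most copied of them, had 1538 and 1068 copies and a log2 ratio of -0.49 (-0.60 to -0.38). Neurod6, a transcription factor of cortical projection neurons, had 1275 and 849 copies and a log2 ratio of -0.55 (-0.68 to -0.42). Both passed the FDR but not the threshold on the ratio. Dcx had a log2 ratio of 0.07 (-0.04 to 0.18), Tbr1 0.02 (85 and 84 copies) and Rbfox3 0.04 (8 and 8 copies). Syt1 was listed only in the RNAi library, with 5 copies. The median log2 ratio of the 6 neuron markers listed in both libraries was -0.24. The 6 measured progenitor and radial glia markers summed to 1009 and 1302 TPM, of which Vim made up 790 and 1127 TPM. Vim alone of these markers had a log2 ratio above 0 (0.51, 2674 and 3724 copies). The most copied tag of Vim had 2234 and 2280 copies, so most of the added copies lay on its other tags. The log2 ratio was -0.50 for Nes, -0.26 for Sox2, -0.25 for Pax6, -0.52 for Hes5 and -0.29 for Fabp7, of which Nes alone passed the FDR, and the median of the list was -0.28. Without any call, the sums were 113 and 124 TPM for 4 astrocyte markers, 542 and 518 TPM for 4 vascular and mesenchymal markers (mostly Col1a1), 15.9 and 18.5 TPM for 3 microglia markers and 6.50 and 6.96 TPM for 5 oligodendrocyte lineage markers. Olig2 had 3 copies in the control library and none listed in the RNAi library. The part of cell composition in the values of Gap43 and Marcksl1 was not tested.

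The genes most like each member in these libraries were those with a control TPM within 2-fold of it and the nearest log2 ratio. For Gap43, out of 203 such genes, these were Snrpg (0.45), Rps18 (0.47) and Rpl4 (0.39). For Marcksl1, out of 153, they were Rpl22 (0.24), Gapdh (0.25) and Rpl29 (0.23). They encode a spliceosomal protein, ribosomal proteins and a glycolytic enzyme. None of the 6 had a copy on a tag ending in 8 or more A. Likeness here rests on 1 ratio per gene between 1 pair of libraries, with both libraries shared by all genes.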

How the data were processed

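Digital gene expression libraries were compared, 1 per condition, grouped by the labels. The authors deposited for each gene its tag count without normalization, the same value as TPM (copies per 1000000 clean tags, not divided by gene length), and the copies and TPM of every tag. Totals of clean tags were worked out from the deposited counts and TPM. The submitters' processing notes name the build rn4. The program that matched tags to genes is not given in the sources used here, and no genomic positions are printed. Symbols came from RefSeq accessions (9337 of 9894 genes, 94.4%). No listed tag had fewer than 2 copies.

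The copies of each gene were set against all other tags on genes in Fisher's exact test (two-sided), with Benjamini-Hochberg adjustment over 9894 genes. Genes were called at an FDR of at most 0.05 with a log2 TPM ratio of 0.58 or more in size. Intervals are exact (Clopper-Pearson) at 95%. The test was checked on simulated libraries that held counting error only, so this check does not cover the spread between cultures. For the tag-end correction, classes were set by the final run of A (3 up to 13) or else by the final 2 bases. The median log2 ratio of a class (tags with at least 20 copies, 0.5 copies added) was estimated on the other part of the genes. It was counted from the median of all such tags, and this relative median was taken out of each tag.

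The members and lists were chosen with earlier results of these data known. The named genes are the members, the called and the most copied genes of each list, and the 3 genes nearest each member. One gene that this rule names is not reported here. Dcx, Tbr1, Rbfox3, Cap1, Dbn1, Dpysl5, Capzb, Nmt1, Ppp3r1, Calm2, Add2, Elavl4, Syt1, Tubb3, Neurod6, Nes, Sox2, Pax6, Hes5, Fabp7, Vim, Col1a1 and Olig2 were added after their values were seen. The alternatives were 16 settings of scaling, added copies, filter, test, thresholds and tags, and 1 correction added after seeing the data. Python 3.11.15, NumPy 2.4.6, pandas 2.3.3, SciPy 1.17.1, Matplotlib 3.10.9, R 4.3.3, edgeR 4.0.16 and DESeq2 1.42.0 were used.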

Additional observations from a re-analysis of the deposited data

Results flagged for a closer look

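A 1-base variant of the leading Gap43 tag drew attention as a signal in tags that the comparisons do not use by themselves, with more than 3 copies. Relative to the leading tag of site 1 it carries A16C, with positions counted from 1 at the C of CATG, and is shown with that base in capitals.
Gap43 site 1 variant: catgagagtaatcaaCaaaaa
It had 32 copies in the control library and 38 in the RNAi library. This was 1.72% of the copies of the site (exact binomial 95% interval 1.18% to 2.42%) and 1.33% (0.945% to 1.82%), so the intervals overlapped. The other variants of the site had 2 to 8 copies in the control library and 2 to 10 in the RNAi library. In both libraries together it made up 1.49% of the site, while the most copied variant had a median share of 0.178% over 590 sites with at least 1000 copies of the leading tag. A share at least as high was found at 28 of these sites (4.75%). Its origin was not tested.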

How the results depend on the processing

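No paired analysis was possible because each condition has 1 library. Over 17 alternatives, the log2 ratio of Gap43 ran from -0.47 to 0.66. It was negative after correction for the tag end (-0.47, or -0.32 with medians over all genes but the members), without tags ending in 8 or more A (-0.17) and on all but the most copied tag (-0.15). On the most copied tag alone it was 0.66, and 1 member was then called higher. For Marcksl1 it ran from -0.045 (correction for the tag end) to 0.68, the latter on 25 and 39 copies of 1-base variants. In the other settings both members kept their sign and stayed uncalled.

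Over all genes, 591 were called lower and 293 higher. These counts became 170 and 114 when edgeR's exact test was given a coefficient of variation of 0.1, 2 and 15 with 0.2, and 0 and 0 with 0.4. They were 262 and 146 at a log2 ratio of 1, 257 and 163 at an FDR of 0.001, 376 and 179 after correction for the tag end (369 and 182 with medians over all genes but the members), and 250 and 128 without the most copied tag. The share of called genes that were higher was 33.1% as deposited, 46.4% (459 lower and 398 higher) with edgeR's TMM factors and 44.6% (475 and 382) with DESeq2's size factors.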
